A study of Mus musculus with 11 samples.

Results

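The interdental cells of the newborn mouse cochlea were chosen by the level of Otoa, the gene for otoancorin. A cell of the P1 data was counted as interdental where its deposited Otoa value was at least 1.8, with Oc90, a marker of the roof of the duct, below 3.5, and with the hair cell markers Myo6 below 1.5 and Ccer2 below 2.0. The deposited values are natural logarithms, taken after adding 1, of a gene's unique molecular identifiers (UMIs, each the tag of 1 captured transcript) scaled to 10000 in each cell. The rule found 493 cells among 14043 P1 cells and among 30634 cells of the whole series. They were compared with the other 12053 P1 non-hair cells, those with Myo6 below 1.5 and Ccer2 below 2.0. Since Otoa, Oc90, Myo6 and Ccer2 chose the cells, their levels are given as a description and were not tested.

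The cells were dissociated from the floor of the cochlear duct of wildtype CD1 mice on the first day after birth (P1) and captured in droplets in 4 libraries, replicates 1 to 4. Cells of the same rule at embryonic day 16 (E16) came from 3 libraries, replicates 1 to 3, of the same strain and genotype, and no treatment was given. The 2 libraries each at E14 and P7, earlier and later ages of the same strain and genotype, gave values only and entered no test. Each library came from a separate collection of pooled cochleae from animals of either sex, so that the spread between libraries is a spread between pools and not between single animals. The roof of the duct, the lateral wall and the underlying stroma had been dissected away before dissociation. The paper proposes that its Oc90 cells were roof cells taken along with the floor.

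Interdental cells are epithelial cells of the spiral limbus, the ridge at the medial edge of the cochlear duct. They line the surface to which the tectorial membrane is attached, the extracellular sheet that lies over the hair cells, and otoancorin sits at that surface and is needed for the attachment. Lateral to them at this age lies Kölliker's organ, a transient epithelium that secretes much of the tectorial membrane and later gives way to the inner sulcus.

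Replicates 1 to 4 gave 235, 55, 16 and 187 interdental cells. These were 6.93% of the non-hair cells of replicate 1 (exact Clopper-Pearson 95% interval 6.10 to 7.84), 2.83% in replicate 2 (2.14 to 3.67), 0.71% in replicate 3 (0.406 to 1.15) and 3.77% in replicate 4 (3.26 to 4.34), a mean of 3.56% ± 2.59 (SD, n = 4). The 4 intervals do not overlap except for those of replicates 2 and 4. The profile of replicate 3 rests on 16 cells, and a gene listed at 0 there may be low rather than absent. Intervals of this kind cover counting error only.

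The P1 libraries held 11829392 to 23523802 UMIs in all. Interdental cells had a median of 5989, 5906, 7103 and 4258 UMIs in replicates 1 to 4 and the other non-hair cells 5536.5, 5143.5, 5552 and 3761, so that the interdental cells were the deeper class in all 4 libraries. Among the P1 cells 84 barcodes occurred in more than 1 library, 2 interdental cells carried such a barcode, and no shared barcode was interdental in both libraries. No doublet caller was run, and 91 of the 493 interdental cells (18.5%) had more than 3000 detected genes, against 652 of the other non-hair cells (5.41%). Without cells of more than 3000 genes all 90 calls tracked for the genes named against other non-hair cells held.

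Otoa averaged 1387 ± 331 CPM (counts scaled to 1000000 UMIs in each cell; SD, n = 4) in the interdental cells, with 1481, 1666, 906 and 1494 CPM in replicates 1 to 4. In the other non-hair cells it averaged 14.0 ± 5.04 CPM, with 8.60 to 20.8 CPM in the 4 libraries. A member held a median of 7 Otoa UMIs and at most 44, while 8 members were chosen on 1 UMI and 21 on 2. Ccer2, although its limit applied to both classes, stood at 134 ± 8.64 CPM in the interdental cells and 17.0 ± 5.74 CPM in the others (SD, n = 4). In hair cells, taken as cells at or above either hair cell limit, Ccer2 reached 6224 CPM. Myo6, held below the same limit in both classes, stood at 19.2 and 26.6 CPM, and Oc90 at 23.0 and 618 CPM. The Oc90 limit alone kept 11 cells out, and 57 cells with Otoa of at least 1.8 were hair cells by the other limits.

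Smoc2, a secreted calcium-binding matrix protein that is the second marker of these cells, was not used by the rule and bears on the name. It stood at 1788, 2549, 3147 and 2202 CPM in the interdental cells of replicates 1 to 4 and at 101, 242, 243 and 140.2 CPM in the other non-hair cells. Every interdental value lay above every other value. The mean of 2421 ± 575 CPM (SD, n = 4) was 13.3-fold that of the other cells, a log2 difference of 3.72 ± 0.11 (SE), with an adjusted p of 8.99e-10 by limma on log2(CPM + 10) with the library as a block. Otoa lies at chr7:121081650-121163097 on the plus strand and Smoc2 at chr17:14279506-14404790 on the plus strand (GRCm38, GENCODE vM21).

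The genes most raised in interdental cells encoded a cartilage-type matrix protein, small regulators of the sodium pump, a cell cycle inhibitor, a prostaglandin synthase and a hypoxia-linked carbonic anhydrase. Across all genes, 571 of 8370 tested (6.82%) were higher and 803 (9.59%) lower in interdental cells than in the other non-hair cells at an adjusted p under 0.05, and 16.4% passed in either direction. The library values of the 2 classes did not overlap for 12.2% of the genes tested. The number of calls fell to 893 without replicate 2, the library that moved it most. On the mean of the deposited logarithms in place of CPM, 638 genes were higher and 594 lower.

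Matn1 (chr4:130944385-130955475, plus strand) encodes matrilin 1, a matrix protein known from cartilage. It stood at 1148, 1217, 1617 and 898 CPM in interdental cells and at 45.6 to 69.5 CPM in the other non-hair cells, a 20.4-fold difference of means with no overlap (log2 difference 4.12 ± 0.12, adjusted p = 8.99e-10). Fxyd6 (chr9:45370185-45396159, plus strand), a small membrane protein that modulates the sodium pump, stood at 640.2, 1226, 749.5 and 953 CPM against 21.1 to 34.5 CPM. Its mean of 892 ± 258 CPM (SD, n = 4) was 32.0-fold that of the other cells (log2 difference 4.55 ± 0.12, adjusted p = 5.17e-10). A second gene of that family, Fxyd3, averaged 275 ± 234 CPM (SD, n = 4) and ranged between libraries from 105 to 607 CPM, all above the 4.22 to 16.7 CPM of the other cells.

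Cdkn1c (chr7:143458339-143461050, minus strand) encodes p57, an inhibitor of cyclin-dependent kinases that is expressed from the maternal chromosome. It was the most abundant of the named genes, at 16430, 13640, 15600 and 4993 CPM in interdental cells and 739.9, 908, 864 and 403 CPM in the other non-hair cells. The values did not overlap although replicate 4 was lowest in both classes, and the log2 difference was 4.03 ± 0.11 (adjusted p = 6.71e-10). Ptgds (chr2:25466709-25470046, minus strand) encodes the lipocalin-type synthase of prostaglandin D. It stood at 1931, 2061, 1270 and 1634 CPM against 88.7 to 128 CPM, a 16.1-fold difference of means (log2 difference 3.88 ± 0.10, adjusted p = 5.17e-10).

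Car9 (chr4:43506966-43513729, plus strand), a membrane carbonic anhydrase known as a target of hypoxia-inducible factor, stood at 391, 263, 373 and 772 CPM in interdental cells. In the other non-hair cells it stood at 15.2 to 16.0 CPM in replicates 1 to 3 and at 59.8 CPM in replicate 4, the library that was also highest among the interdental values. The log2 difference was 3.70 ± 0.14 (adjusted p = 1.29e-08), with no overlap. Mal, a protein of apical membrane transport, averaged 196 CPM against 4.54 CPM. Fgfbp1, a carrier that releases fibroblast growth factors from the matrix, averaged 248.9 CPM against 10.8 CPM. Ly6e averaged 420.3 CPM against 23.2 CPM and the tropomyosin gene Tpm2 averaged 189 CPM against 8.77 CPM. Emp1, an epithelial membrane protein, was the steadiest of the group at 234 to 257 CPM in the 4 libraries against 8.08 to 19.9 CPM. All 12 of these genes were higher in 4 of 4 libraries, which the choice of named genes required. None overlapped between the classes, beside 12.2% of all genes tested, and the choice by size favoured this.

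**Figure D1:**
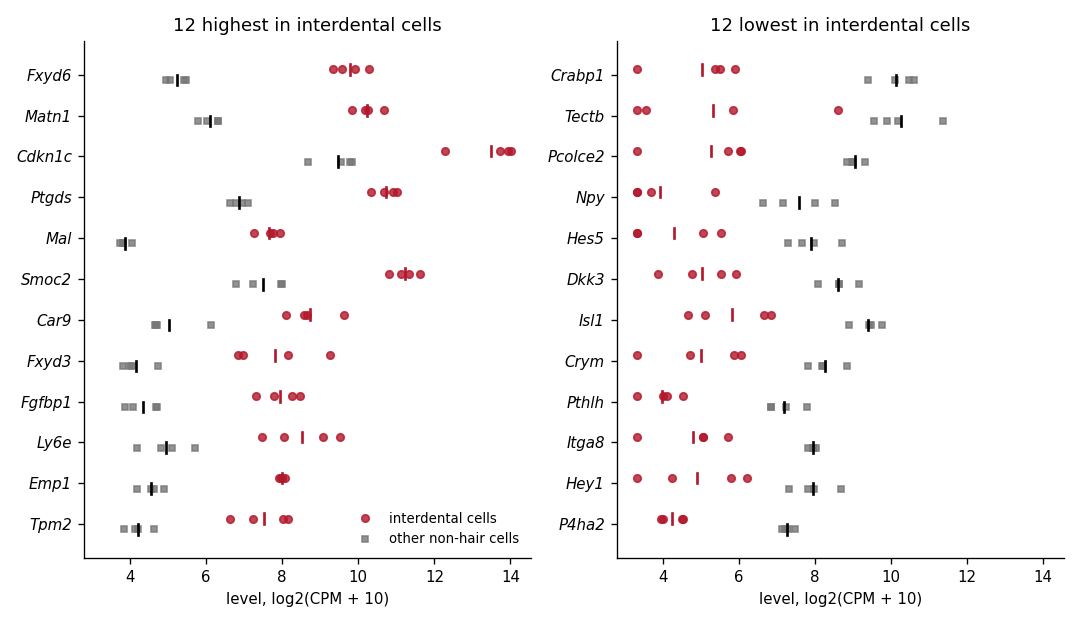
Levels of the 12 most raised and 12 most lowered genes, as log2(CPM + 10), with 1 point per library for the interdental cells and for the other P1 non-hair cells and a line at each mean. The 12 raised genes show no overlap between the classes, and Fxyd3 is spread from 105 to 607 CPM among interdental libraries.

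The start regions of 3 of these genes share a short motif, and are shown because the genes were among the 12 most raised. RefSeq start windows (GRCm38.p6, 250 bases before the start) matched 9 of the 12 raised genes with 10 windows. The letters TGANTCA, read on both strands, were in 3 of these windows and in 6.75% of all 32851 windows. They lay 77 bases before the start of Car9 (chr4:43506776-43507025, plus strand), 145 and 25 bases before that of Emp1 (chr6:135362681-135362930, plus strand) and 35 bases before that of Ptgds (chr2:25469750-25469999, minus strand). These starts are those of RefSeq and differ from the gene bounds of the GENCODE annotation, so that the windows of Emp1 and Ptgds lie inside the GENCODE gene and that of Car9 reaches into it. The windows are written 5′ to 3′ on the strand of the gene, with the motif in capitals.
Car9: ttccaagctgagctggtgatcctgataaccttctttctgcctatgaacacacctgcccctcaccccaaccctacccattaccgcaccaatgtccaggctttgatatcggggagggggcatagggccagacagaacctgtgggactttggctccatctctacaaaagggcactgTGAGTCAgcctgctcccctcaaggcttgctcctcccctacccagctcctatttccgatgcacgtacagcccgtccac
Emp1: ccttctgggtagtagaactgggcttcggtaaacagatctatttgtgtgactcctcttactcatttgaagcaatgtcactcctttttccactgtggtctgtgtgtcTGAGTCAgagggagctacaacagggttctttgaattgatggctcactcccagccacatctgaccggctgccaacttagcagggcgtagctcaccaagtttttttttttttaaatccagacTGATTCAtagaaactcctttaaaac
Ptgds: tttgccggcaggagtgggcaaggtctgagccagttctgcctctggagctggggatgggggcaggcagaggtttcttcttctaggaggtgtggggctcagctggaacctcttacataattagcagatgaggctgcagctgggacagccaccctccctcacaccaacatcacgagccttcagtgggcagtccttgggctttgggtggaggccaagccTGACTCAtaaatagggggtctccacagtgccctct
TATAAA was in none of the 10 windows and in 12.4% of all windows, and GGGCGG was in those of Matn1 and Tpm2 and in 32.7% of all. CCAAT was in 4 windows, those of Car9, Fgfbp1, Fxyd3 and Fxyd6, and in 33.8% of all. ACGTG, the core letters of a hypoxia response element, was in the window of Car9 alone among the 10 and in 16.6% of all windows, and CACGTG, which contains those letters, was in none of the 10 and in 6.02% of all. A match is a description of these letters and does not show that a factor binds there.

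Genes lowered in interdental cells included a retinoic acid binding protein, a tectorin and Notch pathway genes of supporting cells. Crabp1, which binds retinoic acid in the cytoplasm, stood at 31.8, 49.7, 0 and 35.3 CPM in interdental cells and at 1089, 1403, 1555 and 659 CPM in the other non-hair cells. Of the named genes it had the lowest log2 difference, -5.11 ± 0.39 (adjusted p = 3.15e-06), and the classes did not overlap. Tectb, the gene of the tectorial membrane protein β-tectorin, stood at 376, 1.89, 0 and 47.6 CPM against 2618, 936, 1155 and 747 CPM. Replicate 1 was high in both classes, and the log2 difference was -4.92 ± 0.51 (adjusted p = 3.41e-05).

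Hes5 and Hey1, which are effectors of Notch signalling, averaged 14.8 and 29.6 CPM in interdental cells against 247 and 251 CPM. Isl1, a transcription factor of the prosensory and Kölliker's organ epithelium, averaged 59.0 ± 45.5 CPM (SD, n = 4) against 674 ± 159 CPM. Npy, a marker of pillar cells at this age, stood at 31.4 CPM in replicate 1 and at 0 to 3.02 CPM in the others, against 90.3 to 361 CPM. The remaining named genes were Pcolce2, an enhancer of procollagen cleavage, Dkk3, a secreted member of the Dickkopf family, Crym, Pthlh, the gene of parathyroid hormone-related protein, the integrin gene Itga8 and the collagen prolyl hydroxylase gene P4ha2. Their means lay between 6.59 and 38.5 CPM in interdental cells and between 140 and 521 CPM in the other cells. In each of the 12 genes the interdental value was lower in 4 of 4 libraries, which the choice of named genes required. The classes did not overlap in any of them, beside 12.2% of all genes without overlap, and the choice by size favoured this.

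The tectorial membrane genes were mostly lower. Of 10 tested members, 1 was higher and 6 were lower, beside 6.82% and 9.59% of all genes, with a median log2 difference of -1.18 beside -0.10 over all genes tested. Tecta, which encodes α-tectorin, stood at 219, 179, 249 and 142 CPM in interdental cells against 1026, 1390, 1350 and 1065 CPM (log2 difference -2.57 ± 0.12, adjusted p = 6.59e-08). Its 4 interdental values lay close together and far below the others. Otog, the gene of otogelin, averaged 30.6 CPM against 114 CPM, and the collagen genes Col2a1, Col9a1 and Col9a3 averaged 977, 689.8 and 986 CPM against 2203, 2515 and 2241 CPM. Col11a1 was the member that rose, at 442 ± 219 CPM against 208 ± 53.9 CPM (SD, n = 4, adjusted p = 0.000994), with overlapping values, and its call was lost under 3 of 18 alternatives, with no filter, with Otoa of at least 2.5 and without the block (adjusted p up to 0.136). Otogl, Col9a2 and Col11a2 did not pass, with log2 differences of -0.16 ± 0.20, 0.08 ± 0.07 and -0.20 ± 0.12 (SE), and the sign of Otogl turned under 3 alternatives.

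Small leucine-rich proteoglycans, which bind collagen fibrils, were divided. Of 5 tested, 2 rose and 3 fell, beside 6.82% and 9.59% of all genes, with a median of -0.57. Ogn, the gene of osteoglycin, averaged 88.1 ± 40.2 CPM against 9.94 ± 0.785 CPM (SD, n = 4, adjusted p = 7.41e-05), and Prelp averaged 37.3 CPM against 11.2 CPM. Lum, Epyc and Dcn fell, but Epyc still stood at 2100 ± 247 CPM in interdental cells against 3117 ± 404 CPM (SD, n = 4). On the mean of the deposited logarithms Epyc was higher in interdental cells, by 0.57 (adjusted p = 0.00211), so that its direction depended on how cells were averaged.

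Of 23 tested genes of secreted and matrix-associated proteins, Smoc2, Matn1 and Ptgds among them, 10 rose and 6 fell, beside 6.82% and 9.59% of all genes, with a median of 0.10. Cnmd, which encodes chondromodulin, an inhibitor of vessel growth in cartilage, stood at 8396, 7199, 5953 and 4697 CPM against 1896, 2155, 1753 and 1048 CPM (log2 difference 1.95 ± 0.09, adjusted p = 3.78e-08). It was the most abundant member that did not overlap. Timp2, an inhibitor of metalloproteinases, averaged 979 CPM against 184 CPM, and Smoc1, the closest relative of Smoc2, 168 CPM against 36.3 CPM. Sparcl1, Spock1 and Ctgf were among the 6 that fell, with means of 309.7, 167 and 181 CPM against 1547, 514 and 490.1 CPM. Sparc and Ptn, both abundant, did not pass (2473 against 2696 CPM and 3542 against 3311 CPM).

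Genes of ion transport and gap junctions, which serve the recycling of potassium in the cochlea, were divided: of 13 tested, 3 rose and 7 fell, beside 6.82% and 9.59% of all genes, with a median of -0.46. Gjb2, the gene of connexin 26, stood at 177, 186, 51.0 and 197 CPM in interdental cells against 780 to 899 CPM in the other non-hair cells (log2 difference -2.51 ± 0.24, adjusted p = 1.57e-05). Gjb6, the gene of connexin 30, averaged 22.8 CPM against 142 CPM. The pump subunit gene Atp1b1 averaged 133 CPM against 718 CPM, and the cotransporter gene Slc12a2 129.8 CPM against 361 CPM. The members that rose were Fxyd6, Fxyd3 and the potassium channel gene Kcnk1 (411 against 286 CPM, adjusted p = 0.00282). Of 4 carbonic anhydrase genes tested, Car9 and Car13 rose and Car2 and Car14 fell. Car2 averaged 22.8 CPM against 129 CPM.

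Keratins and junction genes were mostly higher. Of 17 tested, 12 rose and 1 fell, beside 6.82% and 9.59% of all genes, and the median was 0.88. Krt19, a keratin of simple epithelia, stood at 680.3, 1117, 671 and 199.6 CPM against 26 to 86.4 CPM, with no overlap (log2 difference 3.15 ± 0.15, adjusted p = 7.23e-08). Krt7 averaged 108 CPM against 5.81 CPM. Krt8 and Krt18, which other cells of the duct also express, averaged 1986 and 2672 CPM against 1083 and 1437 CPM, and their values overlapped although both were higher in 4 of 4 libraries. The claudin genes Cldn3, Cldn4, Cldn6, Cldn7, Cldn10 and Cldn14 and Epcam and Cdh3 rose. Cdh2, the gene of N-cadherin, was the member that fell, from a mean of 47.0 CPM in the other cells to 9.67 CPM.

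Transcription factors of the ear were mostly lower. Of 19 tested, 2 rose and 11 fell, beside 6.82% and 9.59% of all genes, with a median of -0.83. Gata3 averaged 35.8 ± 15.4 CPM against 239 ± 35.1 CPM (SD, n = 4, adjusted p = 9.47e-06), Gata2 8.13 CPM against 103 CPM and Sox2 12.5 CPM against 96.9 CPM. Eya1, an early otic regulator, fell to 91.3 CPM from 232 CPM. Id2 and Id3, which are targets of bone morphogenetic protein signalling, averaged 364 and 264 CPM against 947 and 655 CPM. Their calls were lost under 2 of 18 alternatives each, with no filter and without the block (adjusted p up to 0.0747 and 0.252). Nfib and Zbtb20 rose (269.8 against 113 CPM and 542 against 290.3 CPM). Sox9 did not pass, at 256 CPM against 254 CPM with overlapping values.

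Of 18 secreted signals and antagonists tested, 4 rose and 10 fell, beside 6.82% and 9.59% of all genes, with a median of -1.06. Sostdc1, an antagonist of bone morphogenetic protein and Wnt signalling, stood at 182, 99.5, 137 and 218 CPM against 11.9 to 20.1 CPM (log2 difference 2.70 ± 0.19, adjusted p = 1.41e-06). Pdgfc, Igfbp2 and Wnt5a also rose, with means of 342, 159 and 101 CPM against 66.4, 26.5 and 61.9 CPM. Igfbp3 fell to 43.5 CPM from 329 CPM, Fst, the gene of follistatin, to 5.84 CPM from 72.9 CPM, and Jag1, a Notch ligand, to 21.9 CPM from 78.7 CPM. Fgf10 and Bmp7 fell as well. All 4 tested genes of retinoic acid handling fell, with a median of -1.53, and beside Crabp1 they included Crabp2 (175 against 432 CPM) and Cyp26b1 (13.9 against 61.0 CPM).

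Imprinted genes rose or did not pass. Of 12 tested, 6 rose and none fell, beside 6.82% of all genes that rose, with a median of 0.76, and Cdkn1c was 1 of the 6. H19 (chr7:142575529-142578143, minus strand), a maternally expressed non-coding RNA, stood at 1176, 1436, 1202 and 1405 CPM against 151 to 276 CPM (log2 difference 2.45 ± 0.12, adjusted p = 7.03e-08). Igf2 (chr7:142650766-142666816, minus strand), its paternally expressed neighbour, averaged 259 ± 61.6 CPM against 89.5 ± 40.5 CPM (SD, n = 4, adjusted p = 3.03e-05). Both lay without overlap between the classes, on the chromosome that also carries Cdkn1c. Meg3 averaged 1956 CPM against 754 CPM, Grb10 260.2 CPM against 112 CPM and Phlda2 144 CPM against 30.1 CPM. Phlda2 was spread from 21.8 to 405 CPM, and its call was lost under 4 of 18 alternatives (adjusted p up to 0.327) and that of Grb10 under 2 of 18 (up to 0.103). Peg3, Mest, Ndn, Gnas, Nnat and Sgce did not pass.

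Of 11 tested genes of the hypoxia response and of glycolysis, 1 rose and 2 fell, near the 6.82% and 9.59% of all genes, with a median of 0.07. Ndrg1 averaged 56.4 CPM against 7.75 CPM (adjusted p = 5.44e-05), and P4ha1 and Tpi1 fell. Slc2a1, Ldha and Pgk1 did not pass (134 against 97.5 CPM, 480.0 against 399 CPM and 397 against 399 CPM).

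**Figure D2:**
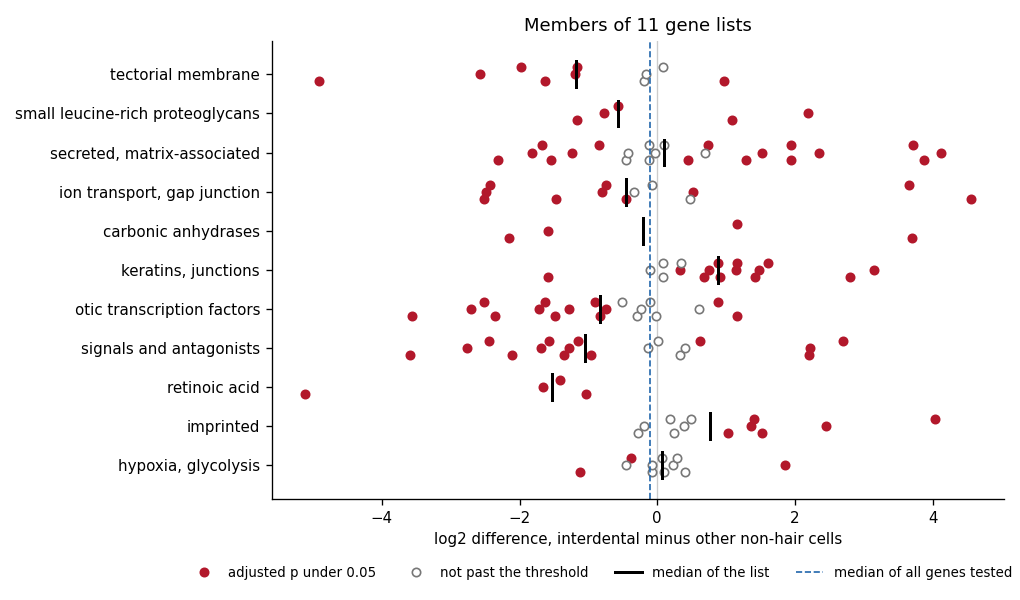
The log2 difference of interdental against other P1 non-hair cells for each tested gene of the gene lists, with 1 point per gene, filled where the adjusted p was under 0.05, a black line at each list's median and a dashed line at the median of all genes tested. Of 17 keratin and junction genes 12 rose and 1 fell, while of 10 tectorial membrane genes 1 rose and 6 fell.

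Markers of the other epithelial cells of the duct were lower than in the other non-hair cells, a pool that holds those cells. All 5 tested markers of the medial Kölliker's organ, both of the list for inner phalangeal cells (Matn4 and Fabp7), all 6 of pillar and Deiters cells and all 4 of Hensen, Claudius and outer sulcus cells were lower in interdental cells, beside 9.59% of all genes. The call of Matn4 was lost under 4 of 18 alternatives (adjusted p up to 0.269). Epyc, of the medial Kölliker's organ list, was higher on the mean of the deposited logarithms (0.575, adjusted p = 0.00211). The summed level of the pillar and Deiters markers was 80.9 to 434 CPM in interdental cells and 1110 to 1990 CPM in the others. For the medial Kölliker's organ the sums were 2650 to 3530 CPM against 4540 to 6650 CPM. Of the interdental cells 35 (7.10%) also had a Calb1 value of at least 2.5, against 24.8% of the other non-hair cells. Of the roof markers only Vmo1 was tested, and it fell.

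The hair cell markers summed to 207 to 346 CPM in interdental cells and 149 to 224 CPM in the others, and the 1 tested, Cib2, did not pass. Myo6 and Ccer2, which the rule used, are part of this sum, and Ccer2 alone averaged 134 CPM against 17.0 CPM. The difference of the sums is therefore not read as one of hair cell markers in general. The glial markers were higher, at 158 to 261 CPM against 66.0 to 83.2 CPM, with 2 of 3 tested raised beside 6.82% of all genes, among them Mbp, which averaged 44.8 CPM against 8.89 CPM. The share of these glial transcripts in any other difference was not tested. Mesenchymal markers summed to 0 to 9.69 CPM with Col1a1, Col3a1, Twist1 and Coch at 0 in all 4 libraries, and macrophage markers to 0 to 8.22 CPM with C1qa, C1qb and Lyz2 at 0. Endothelial markers summed to 7.65 to 63.8 CPM against 7.32 to 46.7 CPM, with Cdh5 and Kdr at 0. Melanocyte, blood and cycling markers reached at most 19.7, 7.41 and 15.4 CPM in interdental cells, and none of their genes was abundant enough to be tested.

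Immediate early and stress genes, which cell dissociation can induce, were in part higher. Of 10 tested, 3 rose (Fosb, Egr1 and Hspa1a) and none fell, beside 6.82% of all genes that rose, with a median of 0.63. The call of Egr1 was lost under 2 of 18 alternatives (adjusted p up to 0.343) and that of Fosb under 1 (adjusted p = 0.0846). The list summed to 8210, 4520, 3100 and 3890 CPM in the interdental cells of replicates 1 to 4 and to 3100, 4480, 4120 and 4090 CPM in the others, so that the sum was higher in interdental cells in replicates 1 and 2 and lower in replicates 3 and 4. Fos stood at 2285 CPM in replicate 1 and at 168 to 349.7 CPM in the other replicates, and it did not pass (adjusted p = 0.0535). The part of this response in the other differences was not tested. Without replicate 1, 441 genes were higher and 568 lower.

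The share of cells with a transcript was compared at equal depth. Cells of at least 1500 UMIs were drawn down to 1500 UMIs each. Hair cells are given beside them as a class that free RNA would reach too. This class held 57 cells with Otoa of at least 1.8 and can express a gene itself, so it is no pure background. Smoc2 was found in 80.1% of interdental cells, 16.8% of the other non-hair cells and 21.1% of hair cells, and without thinning in 91.1%, 31.2% and 47.6%. For Matn1 the 3 shares were 68.4%, 5.02% and 3.41%, for Ptgds 85.6%, 11.1% and 6.55%, for Fxyd6 50.7%, 3.19% and 2.54% and for Car9 46.5%, 3.92% and 2.07%. Other raised genes were found in fewer cells, Fgfbp1 in 23.3%, Mal in 25.4%, Emp1 in 25.8% and Fxyd3 in 29.8% of interdental cells, against 0.539% to 1.68% of the other non-hair cells. Cdkn1c was found in 95.1% of interdental cells and in 42.2% and 41.1% of the other 2 classes.

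For several of the lower genes, the share in interdental cells was under that of hair cells, and neither expression nor its absence is read from it. Crabp1 was found in 3.85% of interdental cells, 49.1% of other non-hair cells and 15.7% of hair cells, and Gjb2 in 12.4%, 56.4% and 18.3%. Tecta was found in 20.1%, 68.7% and 24.4%, and Isl1 in 11.2%, 53.2% and 31.9%. For Sox2 the shares were 2.03%, 11.7% and 9.35%, and for Tectb 8.92%, 36.4% and 13.4%. Epyc, lower in mean CPM, was found in 81.7%, 62.0% and 27.2%, so that its share in interdental cells was above that of both other classes. The median depth before thinning was 5505 UMIs in interdental cells, 4824 UMIs in the other non-hair cells and 5697 UMIs in hair cells. Mbp, the glial gene, was found in 5.48% of interdental cells, 1.39% of the others and 0.868% of hair cells.

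Since the rule is a threshold on 1 gene, cells on both sides of it were described. There were 171 non-hair cells with Otoa from 1.4 to 1.8, just outside, and 118 just inside, from 1.8 to 2.2. The median depth was 5079 UMIs just outside, and 6318, 5906, 5315 and 4544 UMIs in the 4 bands of rising Otoa inside the threshold, so that depth fell as Otoa rose, and its part was not tested. Matn1 averaged 587 CPM just outside and 1121 CPM just inside, Ptgds 635 and 1001 CPM, and Fxyd6 238 and 288 CPM. Gjb2 averaged 942 and 356 CPM, Tecta 675 and 269 CPM and Crabp1 247 and 71.7 CPM. The means of cells just outside were between those of the 2 classes in the 5 genes other than Gjb2. Means of pooled cells cannot tell a graded range from a mix of cells of the 2 classes.

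Within the members the level of Otoa went with that of other genes. From the cells at 1.8 to 2.2 to the 117 cells at 3.0 or above, Fxyd6 averaged 288, 846, 1169 and 1536 CPM in 4 rising bands, and Ptgds 1001, 1525, 2053 and 2742 CPM. Gjb2 averaged 356, 138, 79.0 and 40.4 CPM over the same bands and Tecta 269, 191, 148 and 86.0 CPM. Matn1 showed no such order, at 1121, 1116, 978 and 1214 CPM. The bands are a description with no test, because Otoa chose them and because cells of 1 library share its depth and free RNA. Replicate 3 gave 1 cell to each of the upper 2 bands and is left out of their means, which are over 3 libraries.

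**Figure D3:**
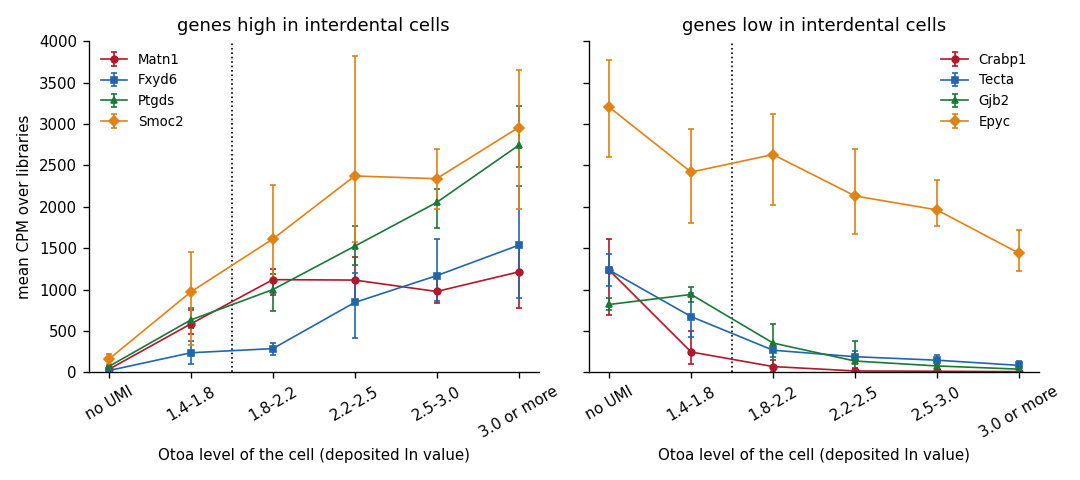
Mean CPM over libraries of 4 raised and 4 lowered genes in P1 non-hair cells grouped by their deposited Otoa value, from cells with no Otoa UMI to cells at 3.0 or above, with bars from the lowest to the highest library and a dotted line at the threshold of 1.8. Fxyd6 and Ptgds are highest and Gjb2 and Tecta lowest in the band of the highest Otoa.

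Against cells of the medial Kölliker's organ, taken by their Calb1 level, the interdental cells differed in many of the same named genes. These 2987 cells had Calb1 of at least 2.5 and Otoa below 1.8, and 564 of 8322 genes (6.78%) were higher and 736 (8.84%) lower in interdental cells (15.6% in either direction). The 2 comparisons share the interdental profiles, and the Calb1 cells are part of the other non-hair cells, so they are not independent of each other. The calls fell to 779 without replicate 2 and to 790 without replicate 4. On the mean of the deposited logarithms 621 genes were higher and 438 lower, so that the balance of directions depended on the averaging.

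The 6 highest genes against Calb1 cells were Fxyd6, Matn1, Ptgds, Mal, Emp1 and Fgfbp1, with means of 1.62 to 80.4 CPM in the Calb1 cells. Matn1 stood at 59.6, 58.9, 48.2 and 20.3 CPM there, and Ptgds at 103, 82.0, 74.9 and 61.3 CPM, all far below the interdental values (log2 differences 4.48 ± 0.15 and 4.26 ± 0.12, adjusted p = 1.41e-09 and 3.81e-10). Smoc2 was higher in Calb1 cells than in the other non-hair cells as a whole, at 194 to 390.2 CPM, and its log2 difference was 3.04 ± 0.11 (adjusted p = 1.42e-09). Igfbp2 stood at 0.259 to 2.32 CPM in Calb1 cells against 99.4 to 238 CPM. The forkhead gene Foxq1, which did not pass against all other non-hair cells, averaged 31.6 CPM against 7.76 CPM (adjusted p = 0.00954), a call lost under 4 of 16 alternatives, without replicate 2 among them (up to 0.166).

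The 6 lowest genes were Crabp1, Pcolce2, Rxrg, Gata2, Spink5 and Itga8. Crabp1 stood at 2200, 2613, 2904 and 1361 CPM in Calb1 cells, a log2 difference of -6.07 ± 0.37 (adjusted p = 3.01e-07). Rxrg, a nuclear receptor for retinoids, averaged 16.7 CPM in interdental cells against 264 CPM, and Spink5, a protease inhibitor, 5.19 CPM against 132 CPM. Tecta, Gjb2, Slc12a2, Atp1b1 and Epyc were lower here too, with log2 differences of -2.11, -1.96, -2.19, -2.39 and -1.56. Of 17 keratin and junction genes 13 rose, and of 12 imprinted genes 7 rose and 1 fell, beside 6.78% of all genes that rose and 8.84% that fell in this comparison. Of 3 tested pillar and Deiters markers 1 rose and none fell, and neither of 2 inner phalangeal markers passed, with medians of 0.667 and 0.626. Of 4 medial Kölliker's organ markers 3 fell, as did the 1 tested marker of Hensen, Claudius and outer sulcus cells. Of the dissociation genes 6 of 10 rose, Fos and Egr1 among them, and their part was not tested. The call of Fos, which stood at 2285 CPM in replicate 1 and at 168 to 349.7 CPM in the others, was lost under 6 of 17 alternatives (adjusted p up to 0.343).

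Some of the genes most raised in the interdental cells were also high in Oc90 cells. These 153 cells, with 67, 16, 8 and 62 in replicates 1 to 4, had Oc90 of at least 3.5, and roof cells of the duct are known for that gene. Ptgds stood at 1844, 1070, 1089 and 1626 CPM in Oc90 cells and did not pass, with a log2 difference of 0.31 ± 0.16 (adjusted p = 0.281). Krt19, at 511, 929.6, 624 and 190.5 CPM, did not pass (0.21 ± 0.18, adjusted p = 0.554), and neither did Fxyd3, at 259, 172, 196 and 124 CPM (0.22 ± 0.29, adjusted p = 0.724). A p above the threshold does not show equal levels. Fxyd3 was lower in interdental than in Oc90 cells without replicate 1, by a log2 difference of -0.10.

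In all, 379 of 8550 genes (4.43%) were higher and 377 (4.41%) lower in interdental than in Oc90 cells, 8.84% in either direction, and the calls fell to 450 without replicate 2. Of 10 dissociation genes tested here none rose and 5 fell, with a median of -0.51, and their part was not tested. Smoc2 stood at 3.5, 24.2, 21.2 and 44.7 CPM in Oc90 cells (log2 difference 6.32 ± 0.26, adjusted p = 1.73e-12). Matn1, H19, Cdkn1c, Fxyd6 and Car9 followed, with means of 28.2, 58.0, 658, 74.3 and 16.7 CPM in Oc90 cells. Fxyd6 reached 223 CPM in replicate 3, where 8 Oc90 cells were averaged.

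The 6 lowest genes against Oc90 cells were Vmo1, Rnase1, Ttr, Dapl1, Postn and Cndp2. Vmo1, a protein of the vitelline membrane family, stood at 10.1, 22.7, 0 and 1.33 CPM in interdental cells against 5164 to 9836 CPM (adjusted p = 1.15e-15). Dapl1 was listed at 0 in the interdental cells of all 4 libraries and stood at 314 to 995 CPM in Oc90 cells, and Ttr and Postn were found in 1 interdental library each. The roof regulators Otx2 and Lmx1a averaged 0.567 and 2.88 CPM against 99.2 and 130 CPM. Otog, lower in interdental cells, averaged 30.6 CPM against 260.5 CPM, whereas Tecta, Epyc and Col11a1 were higher in interdental cells (adjusted p = 0.0318, 1.7e-07 and 2.27e-06). The call of Tecta against Oc90 cells was lost under 11 of 16 alternatives, with adjusted p up to 0.67. Of 18 keratin and junction genes 1 rose, 3 fell and 14 did not pass, beside 4.43% and 4.41% of all genes that rose and fell.

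**Figure D4:**
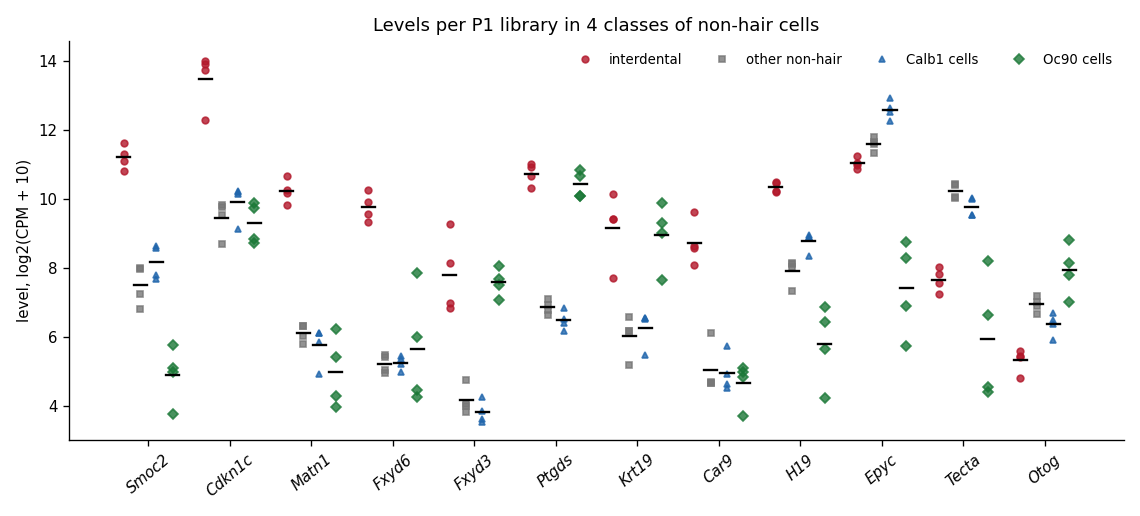
Levels of 12 genes as log2(CPM + 10) in interdental, other non-hair, Calb1 and Oc90 cells of P1, with 1 point per library and a line at the mean. Ptgds and Krt19 overlap between interdental and Oc90 cells, while Smoc2 and Matn1 do not.

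Between E16 and P1, cells chosen by the same rule rose in Matn1, Fxyd6, Ptgds, Car9 and Cnmd, while Smoc2 and H19 did not pass. At E16 the rule found 31, 62 and 138 cells in replicates 1 to 3. Of these, 18, 42 and 73 held at least 3 Otoa UMIs, against 464 of 493 cells at P1. Limited to such cells at both ages, 279 genes were called. The median depth of all cells of the rule was 2833 UMIs at E16 against 5505 UMIs at P1. Age, library, depth and the mix of sexes in the pools cannot be told apart in this comparison. Of 8500 genes 152 (1.79%) were higher and 131 (1.54%) lower at P1, 3.33% in either direction. Of the secreted and matrix-associated genes 5 of 22 rose and 1 fell, of the tectorial membrane genes 2 of 10 rose and of the ion transport genes 2 of 14, with no gene of the latter 2 lists lower. The calls fell to 176 without P1 replicate 2, to 151 without E16 replicate 1 and to 148 without E16 replicate 2, and on the mean of the deposited logarithms 322 genes were higher and 85 lower.

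Matn1 stood at 188, 277 and 255 CPM at E16 and at 898 to 1617 CPM at P1, with no overlap (log2 difference 2.29 ± 0.27, adjusted p = 2.58e-05). Fxyd6 stood at 148, 162 and 232 CPM at E16 (2.23 ± 0.29, adjusted p = 5.86e-05). Car9 and Ptgds averaged 92.4 and 659.7 CPM at E16 and were higher at P1 (adjusted p = 0.000912 and 0.00281). Cnmd averaged 2145 CPM at E16 and 6561 CPM at P1 (adjusted p = 0.000208), and Col9a1 207 and 689.8 CPM (adjusted p = 0.00877). Col9a1 was higher at P1 in the other non-hair cells too, at 721 CPM at E16 and 2515 CPM at P1. Smoc2 stood at 1249, 2056 and 2274 CPM at E16 and did not pass (0.39 ± 0.26, adjusted p = 0.459). Cdkn1c, at 4870 to 9552 CPM at E16, and H19, at 1224 to 1654 CPM, did not pass either (adjusted p = 0.225 and 0.785). The 2 markers of the cells and 2 of their most abundant imprinted transcripts were thus high at both ages, Otoa by the rule.

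The 8 highest genes at P1 were Rarres1, Srxn1, Cav2, Fgfbp1, Prss23, Pgm5, Bcam and Mgp. Rarres1, a retinoid-responsive gene, was listed at 0 in all 3 E16 libraries and stood at 219, 179, 49.1 and 76.7 CPM at P1 (adjusted p = 5.86e-05). Pgm5 and Mgp, the gene of matrix Gla protein, were also listed at 0 at E16, and averaged 69.0 and 58.9 CPM at P1. Cav2, the gene of caveolin 2, stood at 16.9, 0 and 4.88 CPM at E16 and at 112 to 148 CPM at P1 (3.10 ± 0.41, adjusted p = 6.25e-05). Srxn1, which encodes sulfiredoxin, was spread from 36.2 to 286 CPM at P1 against 4.63 to 10.4 CPM at E16. Fgfbp1, Prss23 and the laminin receptor gene Bcam averaged 248.9, 626 and 199.7 CPM at P1 against 22.1, 80.2 and 24.2 CPM.

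The 8 lowest genes at P1 were Atp5k, AC121965.1, Uqcrb, Xist, Pla2r1, Polr2k, Tcf4 and Bola2. Xist also differed between libraries of the same age, at 388 and 0.898 CPM in the other non-hair cells of the E14 libraries. The pools held animals of either sex, and the part of their sex in the level of Xist was not tested. Atp5k and Uqcrb, genes of the mitochondrial respiratory chain, averaged 339 and 410.5 CPM at E16 and 48.1 and 92.7 CPM at P1. In the other non-hair cells Atp5k averaged 394 CPM at E16 and 68.9 CPM at P1, so that it was lower at P1 there as well. The same held for Uqcrb (415 and 94.0 CPM), Polr2k (245 and 47.2 CPM), AC121965.1 (297 and 59.1 CPM), Bola2 (198 and 68.9 CPM), Tcf4 (66.2 and 26.9 CPM) and Xist (1484 and 441 CPM), while Pla2r1 averaged 26.7 and 25.4 CPM in those cells. Pla2r1, a phospholipase A2 receptor, stood at 71.6, 132 and 99.7 CPM at E16 and at 6.32 to 23.7 CPM at P1 (-2.2 ± 0.42, adjusted p = 0.00228). Foxq1 fell from 113 ± 13.2 CPM (SD, n = 3) to 31.6 CPM (adjusted p = 0.0189), a call lost under 12 of 20 alternatives, the omission of any E16 library among them (adjusted p up to 0.483). With Otoa of at least 2.5, fewer cells are averaged and P1 replicate 3, with 2 such cells, leaves the fit. There the calls of AC121965.1, Bola2, Pla2r1, Polr2k, Tcf4 and Uqcrb and of Car9, Mgp and Pgm5 were lost as well.

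Whether the difference between the rule's cells and the other non-hair cells itself changed with age was tested by limma on the difference within each library, an alternative added after the data had been seen. Of 8672 genes 15 (0.173%) passed, among them Rarres1, Srxn1, Cav2, Pgm5, Bcam and Pla2r1. For Bcam the log2 difference between the classes changed by 2.55 from E16 to P1 (adjusted p = 0.0275), and for Pla2r1 it was 1.6 at E16 and fell by 2.13 to P1 (adjusted p = 0.0235). Matn1, Fxyd6, Ptgds, Car9 and Cnmd did not pass (adjusted p = 0.469, 0.0575, 0.234, 0.345 and 0.139), nor did Fgfbp1, Prss23 and Mgp (0.0701, 0.185 and 0.101), so a change of their difference from the other cells with age was not shown.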

How the data were processed

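Single-cell RNA-seq of the cochlear duct floor was made with 10x Genomics Chromium droplets. Per the labels the reads were processed with Cell Ranger 2.1.1 and Seurat 2.0 by the submitters, and 11 libraries of 4 ages are in the series. The deposited tables hold, for each gene and cell, the natural log of 1 plus the UMIs per 10000 UMIs of the cell, as the authors normalized them. Undoing this scale gave whole UMIs, within 2%, for 100% of the values. No column of an unmapped sample was found.

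Here each class of cells gave 1 profile per library, the mean over its cells of each cell's CPM. R 4.3.3 and its package limma 3.58.1 served to compare profiles as log2(CPM + 10), with a mean trend and 2-sided moderated tests. Genes were tested where their profiles averaged 10 CPM or more, with Benjamini-Hochberg adjustment over all of them. P1 classes were compared with the library as a block, and E16 with P1 without a block. A class needed at least 5 cells in a library, so that P1 replicate 3, with 2 cells of Otoa at least 2.5, was left out of the fits at that threshold. A difference on this scale understates the change of low genes. A CPM is a share of the transcripts caught, and it does not compare genes per length, so levels of different genes were not tested against each other. The profiles are means of CPM over cells and not counts, so no count model was fitted. Tables were handled in Python 3.11.15 with numpy 2.4.6, pandas 2.3.3, scipy 1.17.1 and matplotlib 3.10.9.

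The text names the genes past an adjusted p of 0.05 with the same sign in every library and at least 50 CPM in the higher class, leaving out the genes of the rule and mitochondrial, ribosomal, haemoglobin and unnamed genes. These were the 12 highest and 12 lowest against other non-hair cells, 6 and 6 against Calb1 and Oc90 cells, and 8 and 8 between ages. Beside them it names members of 25 gene lists. The members of the cell class and the lists were chosen with earlier results of these data known. Where a group was listed at 0 or at a few UMIs, a fitted difference depends on the pseudocount and is no bound. P-values measure the spread between separate collections of pooled animals.

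On simulated profiles with known changes, the comparison with other non-hair cells recovered 97.1% of genes changed by 1 on the log2 scale, and the comparison of ages 39.2% of them. Every simulated profile was drawn with the same counting error, at more counts than a profile of few cells holds. These shares are therefore no measure of power in these data. Alternatives covered the pseudocount, the filter on low values, scaling, the Otoa threshold, cells of many genes or few UMIs, the way of averaging, the block and each library left out.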

Additional observations from a re-analysis of the deposited data

Results flagged for a closer look

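Among 271 sets of 4 library values, 27 had 1 library far from the other 3 for their range, where chance gives about 1 in 20 for independent normal values only. The interdental cells held 11 of them, and 9 of those were replicate 1. In replicate 1 the interdental levels were 2285 CPM for Fos (168 to 349.7 in the others), 376 for Tectb (0 to 47.6), 82.3 for Cldn10 (14.1 to 15.9), 74.5 for Fabp7 (0 to 0.892) and 31.4 for Npy (0 to 3.02). Car14, Otx2, Postn and Ttr stood at 2.92, 2.27, 1.05 and 0.511 CPM there and at 0 in the other 3 libraries. Such sets are flagged at any level above 0, and replicate 1 held the most interdental cells, so they are not set against that rate. Fabp7 is known from the epithelium beside the organ of Corti and Npy from pillar cells, and their part in other results was not tested. In replicate 3, of 16 interdental cells, Cdh2 stood at 19.8 CPM (5.23 to 7.51 in the others) and Gjb2 at 51.0 CPM (177 to 197).

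In the other non-hair cells replicate 4 stood apart for Car9 (59.8 CPM), Cdh2 (41.0 CPM), Igfbp2 (48.7 CPM) and Sox2 (125 CPM). Replicate 1 stood apart there for Cldn10 (3.32 CPM), Col2a1 (1388 CPM), Egr1 (141 CPM), Fgf10 (48.5 CPM) and Meg3 (426 CPM). In the Calb1 cells the library apart was replicate 1 for Atp1b1 (898 CPM), replicate 2 for Fgfbp1 (9.71 CPM) and replicate 3 for Pcolce2 (744 CPM). It was replicate 4 for Cdkn1c (548 CPM), Gjb6 (130.0 CPM) and Krt19 (34.2 CPM). In the Oc90 cells Wnt4 reached 223 CPM in replicate 3.

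The difference between cells of the Otoa rule and other non-hair cells changed between E16 and P1 for 15 of 8672 genes (0.173%). This test of that change was added after the data had been seen. Of the 15 genes, 6 were among the named genes, which had been chosen for a large difference between the ages in the same profiles. On the log2 scale the change was 3.40 for Rarres1, 2.95 for Pgm5, 2.55 for Bcam, 2.5 for Cav2, 1.90 for Srxn1 and -2.13 for Pla2r1. Rarres1 and Pgm5 were listed at 0 in the rule's cells of all 3 E16 libraries, so that their values depend on the pseudocount of 10 CPM and are no bound.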

How the results depend on the processing

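The number of genes called against other non-hair cells (1374) was 911 with no filter on low values, 836 with a mean of at least 50 CPM, which tests fewer genes, and 893 to 1507 with 1 library left out, lowest without replicate 2. The number against Calb1 cells (1300) was 197 with no filter, 805 with at least 50 CPM, 853 without cells of more than 3000 genes and 779 to 1382 with 1 library left out, 779 without replicate 2 and 790 without replicate 4. Against Oc90 cells (756) it was 448 with a pseudocount of 1 CPM, 377 without cells of more than 3000 genes and 450 to 983 with 1 library left out, and with no filter limma called 0, with 1964 genes at an unadjusted p under 0.05. Between ages (283) it was 168 with a pseudocount of 1 CPM, 1 with no filter and 69 with Otoa of at least 2.5, which also left out P1 replicate 3. With 1 library left out it was 148 to 361, with 176 without P1 replicate 2, 151 without E16 replicate 1 and 148 without E16 replicate 2. The difference of the classes between ages gave 15. The causes of these changes were not tested beyond the fewer genes, cells or libraries that the alternatives hold by construction.

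Without the replicate block, here the library that gave both classes, the P1 comparisons called 514, 419 and 391 genes against other non-hair, Calb1 and Oc90 cells. Between ages the replicate numbers pair nothing by the labels, and the deviations of same-numbered libraries correlated by 0.0322, -0.0493 and 0.0116. A fit with the replicate block there called 305 genes, and 1 of 3 E16 libraries correlated best with its own number.

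The mean share of interdental cells fell from 3.56% to 1.94% with Otoa of at least 2.5, as a stricter threshold leaves fewer cells by construction. It was 3.37% with at least 3 Otoa UMIs and 3.59% in cells of at least 3000 UMIs. Calls split otherwise under some settings: of the calls against other non-hair cells 41.6% were higher, and 30.6% with no filter. Against Calb1 cells 43.4% were higher, 54.8% with no filter and 54.4% without the block.

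The log2 difference of Otogl turned from -0.16 to 0.003 with Otoa of at least 2.5, to 0.04 with summed UMIs and to 0.003 on the mean of the logarithms, and that of Epyc to 0.575 on the latter. Fxyd3 against Oc90 cells ranged from -0.102 without replicate 1 to 0.535 without replicate 3. Set against other non-hair cells, the changes with age of Uqcrb, Polr2k, H19 and Col9a1 were 0.055, 0.067, 0.106 and -0.243, and H19 was 0.258 with Otoa of at least 2.5. Of the 90 calls tracked against other non-hair cells, 74 held with no filter, 72 without the block and all with profiles rescaled by the median ratio. Depth limits genes near 10 CPM, where a profile of 16 cells holds few UMIs.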

Other observations

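The Otoa rule found 62 cells in the 2 E14 libraries and 89 cells in the 2 P7 libraries. At E14 a Smoc2 UMI was found in 88.7% of the cells of the rule and in 31.0% of the other non-hair cells, and Cdkn1c in 95.2% and 75.1%. Matn1 was found in 9.68% of these cells at E14 (exact 95% interval 3.63 to 19.9), in 42.0% at E16 (35.5 to 48.6) and in 91.7% at P1 (88.9 to 94.0), against 1.24%, 4.92% and 8.5% of the other non-hair cells, with no thinning to equal depth and a median of 3304.5, 2833 and 5505 UMIs per cell.

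At P7 the cells of the rule did not carry the second marker. Smoc2 was found in 0 of 89 cells, where a count of 0 allows up to 3.37% of cells with a UMI (3 counts) and the exact 95% interval up to 4.06%, and in 0.765% of the other non-hair cells. Cdkn1c was found in 13.5% of the cells of the rule against 35.2% of the others. Tectb averaged 13600 CPM in the cells of the rule and 8825 CPM in the other non-hair cells. The P7 cells are therefore called by the rule alone and entered no comparison.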
